A study of Homo sapiens with 6 samples.

Results

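C4-2B is a human prostate cancer cell line, a castration-resistant descendant of LNCaP. The account below covers its baseline transcriptome: stable C4-2B sublines that carried the pcDNA 3.1 vector only, grown in RPMI1640 with serum and sequenced as 3 libraries. Polyadenylated RNA was read from paired ends for 150 cycles with strand kept. The 3 further libraries of the series, from sublines with LINC00888 in the same vector, served only to read the rule by which genes are listed. A gene counted as expressed when its FPKM, its fragments scaled to gene model length and to the library's mapped total, was at least 1 in all 3 empty vector libraries. This held for 10439 of the 11844 protein-coding genes in the tables (88.1%), of which 10426 were nuclear and 13 mitochondrially encoded. Another 923 genes were under 1 in all 3 libraries, and 482 were on different sides of 1. Just inside the minimum were RAB39A with 1.00, 1.30 and 1.33 FPKM and RGS12 with 1.09, 1.00 and 1.06, and just outside it ICOSLG with 0.998, 1.07 and 1.04 and BBOF1 with 0.998, 1.09 and 1.07. Sets of values are given throughout for libraries 1, 2 and 3 in that order, and errors are SD over the 3 libraries.

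The glands of the prostate are lined by luminal cells, which secrete prostate-specific antigen (PSA), zinc and citrate, and by basal cells underneath. Luminal identity is held by FOXA1, HOXB13 and GATA factors among others, and androgens switch on secreted proteases, lipid synthesis and membrane transport genes. Luminal prostate cancers, LNCaP among them, are known for keeping this programme and for making fatty acids and sterols rather than importing all of them.

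The libraries were close to each other. The FPKM of listed genes summed to between 213271 and 217336, and between 10671 and 10709 genes reached an FPKM of 1. Across the expressed genes, log2(FPKM + 0.5) correlated at 0.986 for every pair of libraries. The median expressed gene had a mean of 7.10 FPKM, with quartiles of 3.48 and 15.8, and 257 genes (2.46%) had a mean of at least 100. The tables list genes with a mean of at least 0.5 FPKM in at least 1 group of the series, so a gene that is not listed has no value here. They hold no counts, so depth and counting error are unknown, and whether the libraries were separate cultures is not in the labels. In bulk RNA, fewer cells of a type and less RNA per cell cannot be told apart.

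Transcription factors of the luminal prostate were expressed at high levels in these cells. Of 13 factors, 12 were expressed, with a median of 59.1 FPKM, against 7.10 over all expressed genes. EHF, an epithelial ETS factor, had 125, 99.7 and 123 FPKM. FOXA1, which opens chromatin for steroid hormone receptors, had 92.8, 91.2 and 92.4 FPKM. These factors stood among the most abundant 5% of expressed genes, which began at 59.8 FPKM, and the libraries lay close together for FOXA1. HOXB13, the homeobox factor that marks prostate identity (ENSG00000159184.7_2, chr17:46802125-46806540, minus strand in the deposited table), had 84.98, 85.8 and 83.9 FPKM. The build of the deposited positions is not stated, but the ending of such identifiers (_2, _3 and the like) is the one GENCODE uses for annotation mapped to GRCh37. SPDEF, another ETS factor of secretory epithelium, had 84.7, 83.5 and 84.5 FPKM. XBP1, a factor that enlarges the secretory pathway, averaged 65.5 ± 7.74 FPKM. GATA2 averaged 52.7 ± 0.808, GRHL2 47.4 ± 2.36 and CREB3L4 21.9 ± 0.409 FPKM. KLF5 at 3.48 ± 0.167 and ELF3 at 2.41 ± 0.0765 FPKM were below the median of all expressed genes, and HOXA13, at 0.961, 0.964 and 0.824, was under the minimum.

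The kallikreins, a cluster of secreted serine proteases on chromosome 19, were represented by 5 of 15 family members. KLK3, which encodes PSA (ENSG00000142515.14_3, chr19:51358171-51364020, plus strand in the deposited table), had 383, 366 and 368 FPKM. KLK2, whose product activates PSA, had 91.8, 92.7 and 93.7 FPKM. The KLK3 over KLK2 ratio was 4.01 ± 0.135 (n = 3). KLK3 was thus the higher of these neighbours in every library, and it ranked among the 30 most abundant nuclear genes. KLK4, another androgen-regulated protease of the prostate, averaged 66.4 ± 2.56 FPKM, KLK15 7.68 ± 0.456 and KLK1, the tissue kallikrein, 1.68 ± 0.447. KLK5 to KLK14 are not listed in the tables used here.

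The start regions of KLK3 and KLK2 are shown because the genes are neighbours with nearly the same upstream sequence and different levels. Both come from RefSeq (GRCh38.p14), plus strand, from 180 bases before to 10 bases after the start, at chr19:50854735-50854924 and chr19:50873259-50873448. These GRCh38 positions are on another build than the deposited ones and cannot be set beside them. Capitals mark the androgen response half-site AGAACA and the letters TATA within 35 to 20 bases before the start.
KLK3: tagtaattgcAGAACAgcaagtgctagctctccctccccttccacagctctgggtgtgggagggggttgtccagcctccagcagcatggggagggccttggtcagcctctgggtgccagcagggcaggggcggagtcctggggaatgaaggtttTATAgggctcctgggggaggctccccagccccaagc
KLK2: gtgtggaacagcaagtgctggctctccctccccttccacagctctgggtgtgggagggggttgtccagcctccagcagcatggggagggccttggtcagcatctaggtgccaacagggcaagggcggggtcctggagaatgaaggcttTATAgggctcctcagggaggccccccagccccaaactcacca
A global alignment of these windows had 171 identical columns, 13 mismatches and 12 gaps, an identity of 87.2%. AGAACA stood at -170 to -165 in KLK3, and TATA at -26 to -23 in KLK3 and -32 to -29 in KLK2. Only exact matches were searched and marked, so near matches to the half-site are not in capitals or counts. At the matching place the KLK2 window reads ggaaca, with g for the leading a, followed by the same letters gcaagtgct. Whether either site is used was not tested. Of 34 RefSeq windows (250 bases before to 50 after the start) of kallikreins and androgen targets, 5 held AGAACA on either strand (14.7%), in FKBP5, KLK3, PMEPA1 and TRPM8. The share was 9.23% over 12291 windows of expressed genes and 14.8% over all 35116 windows of the table. The palindromic full site (AGAACA, any 3 bases, TGTTCT) was in 0 windows of expressed genes and 1 of all windows.

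Genes known to respond to androgens were mostly abundant as well. Of 29, 27 were expressed, with a median of 63.8 FPKM, and 26 of them were above the median of all expressed genes. Among the most abundant, beside KLK3, were MPC2, a subunit of the mitochondrial pyruvate carrier, with 251, 265 and 253 FPKM, and PLPP1, a lipid phosphatase, with 209.7, 219 and 214. STEAP1, a metalloreductase family protein of the prostate cell surface, had 185, 194 and 192 FPKM. In each of these the libraries lay within a narrow band. SORD, which oxidises sorbitol to fructose, was less even, with 90.4, 161 and 92.9 FPKM, and library 2 was the high one. TMPRSS2, the protease whose promoter is fused to ETS genes in many prostate tumours, averaged 82.3 ± 1.57 FPKM, SLC45A3, a solute carrier known as prostein, 82.9 ± 0.909, and FKBP5, a chaperone partner of steroid receptors, 38.2 ± 1.28. STEAP2 and ZBTB10 spread over 2-fold between libraries: STEAP2 had 18.8, 6.67 and 9.37 FPKM and ZBTB10 5.23, 4.48 and 11.7. ACP3, which encodes prostatic acid phosphatase, had 1.34, 0.988 and 1.22 FPKM and missed the minimum in library 2. STEAP4 is not listed in the tables used here.

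Among surface antigens used as targets in prostate cancer, 16 of 18 were expressed, with a median of 10.9 FPKM. FOLH1, the prostate-specific membrane antigen (ENSG00000086205.16_2, chr11:49168187-49230222, minus strand in the deposited table), had 235, 229 and 231 FPKM, and STEAP1 came next. EPCAM, an epithelial adhesion molecule, averaged 48.9 ± 2.61 FPKM and TRPM8, a cold-sensing channel, 14.8 ± 1.31. TFRC, the transferrin receptor, had 71.6, 36.8 and 65.3 FPKM, lowest in library 2. By their means, 10 of the 16 were above the median of all expressed genes, STEAP2 and CD276 among them with 11.6 and 9.90 FPKM. Library 1 was the high one for both. CD276 was below that median in libraries 2 and 3, with 4.41 and 5.49 FPKM, and STEAP2 was below it in library 2. Of those below it, DLL3, a Notch ligand, averaged 5.11 ± 0.776 FPKM, TMEFF2 3.02 ± 0.156, NECTIN4 2.70 ± 0.297 and PSCA 2.29 ± 0.143. The label of a prostate luminal line was therefore met by all 3 markers checked first, KLK3, HOXB13 and FOLH1, each in the most abundant 5% of expressed genes. CEACAM5 and MUC1 are not listed in the tables used here.

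Epithelial keratins and junction genes gave a luminal pattern with few mesenchymal transcripts. The list of 25 genes held mesenchymal genes as well, such as CDH2 and ZEB1, so its counts are not of epithelial genes alone. Of the 25, 18 were expressed, with a median of 23.8 FPKM, and 13 were above the median of all expressed genes. CLDN3, a tight junction protein, averaged 66.5 ± 0.765 FPKM and CDH1, the epithelial cadherin, 55.6 ± 1.67. KRT18 had 56.1, 57.3 and 55.9 FPKM and its partner keratin KRT8 had 30.1, 31.3 and 29.6. The ratio of this pair was 1.86 ± 0.0295, so KRT18 was higher in each library. CLDN7 averaged 52.3 ± 12.5 and JUP, a junction plaque protein, 54.7 ± 1.22 FPKM. Vimentin (VIM), an intermediate filament of mesenchymal cells, averaged 3.31 ± 0.222 FPKM, SNAI1 3.56 ± 0.296 and SNAI2 3.43 ± 0.364, all below the median expressed gene. CDH2, ZEB1, ZEB2 and TWIST1 are not listed in the tables used here, nor are KRT7 and KRT20.

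Markers of other cell types were low or not listed. Of 11 basal genes, 3 were expressed: KRT14 with 2.34, 2.39 and 1.96 FPKM, CDH3 with 1.56, 1.39 and 1.55 and ITGB4 with 1.13, 1.06 and 1.19. DST was under the minimum at 0.542, 0.425 and 0.464, and KRT5, KRT15, KRT17, TP63, LAMB3, NGFR and CAV1 are not listed. Their listed members summed to between 5.16 and 5.57 FPKM per library. Of 14 neuroendocrine genes, DDC, an amino acid decarboxylase, had 5.60, 5.55 and 5.59 FPKM. ENO2, the neuronal enolase, had 5.03, 2.65 and 2.97 FPKM and ONECUT2 1.48, 1.38 and 1.39. CHGA, CHGB, SYP, NCAM1, INSM1, SCG2, SCG3, NEUROD1, SOX2 and SRRM4 are not listed. Of fibroblast genes COL1A1 reached 3.00, 2.97 and 3.19 FPKM and PDGFRB was under the minimum at 0.352, 0.238 and 0.336. COL1A2, COL3A1, DCN, LUM, PDGFRA, FAP, ACTA2 and THY1 are not listed. The leukocyte gene CD68 was at 0.809, 0.574 and 0.966 FPKM and the endothelial gene VWF at 0.539, 0.559 and 0.523, both under the minimum. PTPRC, CD14, CD3E, LYZ, CD74, CD79A, ITGAM, HLA-DRA, PECAM1, CDH5, KDR, TEK and ENG are not listed.

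**Figure D1:**
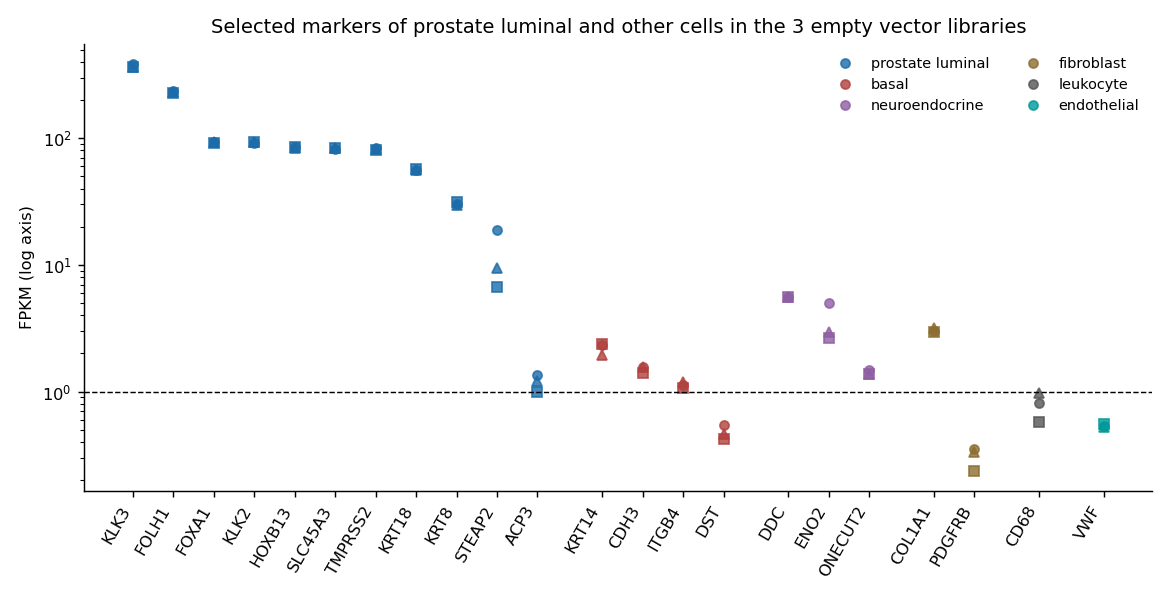
FPKM (log axis) of a selection of listed markers of prostate luminal, basal, neuroendocrine, fibroblast, leukocyte and endothelial cells; circles, squares and triangles are empty vector libraries 1, 2 and 3, and the dashed line is an FPKM of 1. Of the luminal markers plotted, all but ACP3 lie above the highest marker of the other cell types (DDC, 5.58 FPKM). Several members of the prostate lists that are not plotted were below it, among them KLF5, ELF3, HOXA13, KLK1, PSCA, TMEFF2, NECTIN4 and DLL3.

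Genes that are often altered in prostate tumours were mostly of middle level: 24 of 30 were expressed, with a median of 8.38 FPKM. CCND1, the G1 cyclin, averaged 74.8 ± 2.72 FPKM and MCL1, an antiapoptotic protein, 38.0 ± 2.81. CTNNB1, which encodes beta-catenin, averaged 35.8 ± 2.80 and CDKN1B, a cell cycle inhibitor, 32.7 ± 0.599 FPKM. KDM1A, a histone demethylase, averaged 23.4 ± 0.285 and CDKN1A, the p21 inhibitor, 19.6 ± 1.95. RB1, the retinoblastoma protein gene, averaged 12.7 ± 0.663 FPKM and EZH2, the Polycomb methyltransferase, 15.3 ± 0.586. APC, with 0.300, 2.198 and 0.368 FPKM, and ATM, with 1.91, 0.917 and 1.84, were each under 1 in at least 1 library. ERG, ETV1, ETV4 and BCL2 are not listed in the tables used here.

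Mitochondrially encoded transcripts took 17.9 ± 0.411% of the summed FPKM of listed genes, with the libraries between 17.6% and 18.4%. The 13 genes of this genome encode subunits of respiratory complexes I, III, IV and V. All 13 were expressed, and 11 of them were the only genes with a mean of at least 1000 FPKM. The cytochrome oxidase subunits MT-CO1, MT-CO3 and MT-CO2 averaged 6043 ± 75.7, 5088 ± 151 and 4339.6 ± 126 FPKM. MT-ATP8 had 6465, 6633 and 7152 FPKM and MT-ATP6 had 1119, 1113 and 1081. These ATP synthase subunits lie on a shared transcript with overlapping frames, so their separate levels are uncertain, and the same holds for MT-ND4L (2755 ± 237) and MT-ND4 (3929 ± 112). MT-CYB averaged 2441 ± 111 FPKM, MT-ND1 2056 ± 56.8, MT-ND2 1712 ± 74.2, MT-ND5 1216 ± 95.4 and MT-ND3 892 ± 56.1. The lowest was MT-ND6, which is read from the other strand, with 221, 270.4 and 233 FPKM.

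Among nuclear genes, translation and protein folding led. The 30 most abundant had means from 348 to 887 FPKM. RPL41, a very short ribosomal protein, had 865, 929 and 867 FPKM. EEF2, the translocation factor of elongation, had 803, 787 and 829.9 FPKM. HSP90AB1, a constitutive HSP90 chaperone, had 762, 780.2 and 782 FPKM. GAPDH, the glycolytic dehydrogenase, followed with 711, 744 and 741. In these leading genes the highest library was about 1.07 times the lowest or less. EEF1A1, which brings aminoacyl-tRNA to the ribosome, was less even, with 645, 504 and 682 FPKM, library 2 being low. FTH1, the ferritin heavy chain that stores iron, was likewise low in library 2, with 409, 295 and 412.7 FPKM. EEF1G, another elongation factor subunit, was low in library 1, with 346, 533 and 512 FPKM. The group also held the small heat shock protein HSPB1 (503 ± 8.67), actin ACTB (489 ± 27.1), the tubulin TUBB (460.0 ± 9.51), the chaperone HSP90AA1 (445 ± 20.2) and the RNA-binding protein YBX1 (351 ± 11.7). KLK3 was the prostate-specific member, and ELOVL5, a fatty acid elongase, with 396 ± 8.12 FPKM, and DEGS1, a ceramide desaturase, with 348 ± 16.8, were the lipid enzymes.

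**Figure D2:**
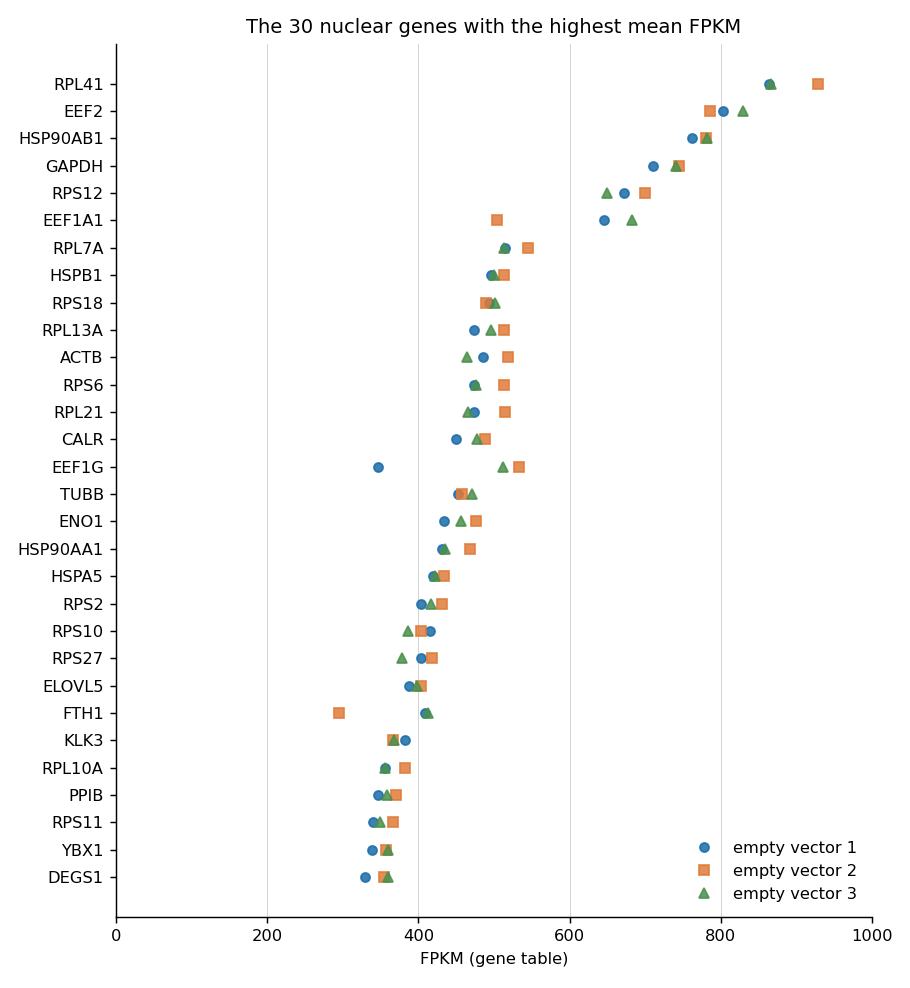
FPKM of the 30 nuclear genes with the highest means, by gene; circles, squares and triangles are empty vector libraries 1, 2 and 3. RPL41, EEF2, HSP90AB1 and GAPDH lie above 700 in each library, and EEF1A1, EEF1G and FTH1 are the genes with a library visibly apart.

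All 79 ribosomal protein genes of the list were expressed, with a median of 156 FPKM, and together they made 9.10% of the nuclear sum. They ranged from RPL41 to RPS29, at 15.6 ± 1.18 FPKM. After RPL41 came RPS12 with 674 ± 25.1 FPKM, RPL7A with 524 ± 18.2, RPS18 with 495 ± 5.52, RPL13A with 494 ± 20.04 and RPS6 with 488 ± 22.5. Many of these genes have near-identical processed pseudogenes, so how reads were shared with those copies can affect their values. The 21 translation factors had a median of 68.8 FPKM. EEF1A2, the elongation factor form of muscle and neurons, averaged 302 ± 9.24 FPKM, and the EEF1A1 over EEF1A2 ratio was 2.03 ± 0.368. PABPC1, the poly(A) binding protein, averaged 177 ± 1.76, EIF4B 137 ± 5.98 and the cap-binding protein EIF4E 8.82 ± 0.544 FPKM.

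Start sites of these abundant genes are shown because mRNAs of the translation apparatus are known for beginning with a run of C and T. Sequences are from RefSeq (GRCh38.p14), from 40 bases before to 20 after the start and read along each gene, with the run of C and T that covers the start in capitals. Where a gene has several windows, the one with the lowest position is shown, and whether it is the start in use was not checked. The windows shown for GAPDH and CALR, also abundant, have no such run.
RPL41: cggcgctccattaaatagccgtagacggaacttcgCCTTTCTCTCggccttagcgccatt
EEF2: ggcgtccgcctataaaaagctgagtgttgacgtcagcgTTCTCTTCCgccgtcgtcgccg
RPS12: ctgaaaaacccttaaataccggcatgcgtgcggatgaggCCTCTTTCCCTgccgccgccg
EEF1A1: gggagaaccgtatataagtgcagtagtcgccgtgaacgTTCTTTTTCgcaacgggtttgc
RPL7A: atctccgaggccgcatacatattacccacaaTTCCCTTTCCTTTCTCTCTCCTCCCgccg
RPS18: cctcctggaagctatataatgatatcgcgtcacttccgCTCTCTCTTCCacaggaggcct
ELOVL5: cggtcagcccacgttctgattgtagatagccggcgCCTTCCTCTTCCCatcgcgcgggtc
GAPDH: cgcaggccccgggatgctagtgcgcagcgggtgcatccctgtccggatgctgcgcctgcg
CALR: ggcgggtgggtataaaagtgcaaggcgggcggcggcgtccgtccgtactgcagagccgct
These windows lie at chr12:56116593-56116652 (plus), chr19:3985444-3985503 (minus), chr6:132814529-132814588 (plus), chr6:73521013-73521072 (minus), chr9:133348178-133348237 (plus), chr6:33272035-33272094 (plus), chr6:53348931-53348990 (minus), chr12:6535224-6535283 (plus) and chr19:12938569-12938628 (plus strand). A C at the start followed by at least 4 C or T stood in 47 of 78 windows of ribosomal protein genes (60.3%) and in 9 of 24 windows of translation factors (37.5%). It stood in 14 of 31 windows (45.2%) matched for 26 of the 30 most abundant nuclear genes. Those 30 include many ribosomal protein and translation factor genes, which were not left out. For the 10% of expressed genes with the highest levels the share was 10.5% of windows. Without ribosomal proteins and translation factors, the share in those 10% was 6.31%, against 5.43% over all expressed genes and 4.07% over the whole table. The letters TATA at 35 to 20 bases before the start, on the gene's strand, were in 9 of 31 windows of the 30 genes (29.03%). The share was 3.69% over all expressed genes and 5.45% over the whole table. In the 10% with the highest levels it was 8.59%, and 7.71% there without ribosomal proteins and translation factors. It was 14.1% in windows of ribosomal protein genes and 29.2% in those of translation factors. RefSeq windows were matched for 8557 of the 10439 expressed genes, and a gene may have several.

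The secretory pathway was the other abundant group. All 26 genes of entry into and folding in the endoplasmic reticulum (ER) were expressed, each above the median expressed gene, with a median of 70.6 FPKM. CALR, a lectin chaperone, had 449.8, 489 and 478 FPKM. HSPA5, the ER HSP70 known as BiP, had 419.6, 433 and 421 FPKM. PDIA4, a disulfide isomerase, averaged 229 ± 1.66, HSP90B1 198 ± 4.41, PDIA3 183 ± 15.8 and the translocon subunit SEC61B 121 ± 7.33 FPKM. AGR2, an ER protein of secretory epithelia, was the lowest at 10.5 ± 0.452. SEC61A1, the pore of the translocon, was uneven, with 40.2, 97.3 and 99.1 FPKM, and library 1 stood apart. The proteasome core had 16 of 17 genes expressed, led by PSMA7 with 156 ± 3.96 FPKM, PSMB3 with 105 ± 4.79 and PSMB4 with 90.1 ± 2.42. Its immune forms were low: PSMB8 averaged 1.75 ± 0.143 and PSMB10 4.16 ± 0.284 FPKM, against 26.5 ± 1.80 for PSMB5, the constitutive counterpart of PSMB8, and PSMB9 is not listed.

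Nuclear genes of the respiratory chain were expressed in full for complexes I and V. All 38 complex I genes had a median of 32.3 FPKM, led by NDUFS5 with 314, 339 and 314 FPKM. NDUFB7 averaged 153 ± 3.53 and NDUFA1 138 ± 5.70, and the lowest was NDUFS7, an iron-sulfur subunit, at 7.67 ± 0.169. Complexes II to IV and cytochrome c had 25 of 28 genes expressed, with a median of 59.4 FPKM. COX8A averaged 291 ± 9.66 FPKM, UQCRH 219 ± 6.48 and COX6B1 147 ± 6.76, and the muscle forms COX6A2 and COX7A1 and the lung form COX4I2 are not listed. The 16 genes of complex V, the ATP synthase, had a median of 43.8 FPKM, with its catalytic subunit ATP5F1B at 241, 276 and 323 FPKM. SDHC, a membrane anchor of complex II, averaged 9.92 ± 1.23 FPKM, against 52.2 ± 3.86 for the other anchor SDHD, so subunits of the same complex differed several-fold.

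Glycolysis was expressed at a median of 53.5 FPKM over 21 of 28 genes. Several steps after the sugar is split were ahead of glucose uptake and phosphorylation. GAPDH, ENO1 (455 ± 21.3), PGAM1 (199 ± 4.86), TPI1 (185 ± 5.15) and PGK1 (167 ± 2.44), which act after that split, were the highest with LDHB. The glucose transporter SLC2A1 averaged 10.8 ± 0.670 FPKM, and the most abundant forms of hexokinase, HK1, and phosphofructokinase, PFKP, 53.5 ± 0.647 and 36.5 ± 0.983. Lactate dehydrogenase LDHB had 269.7, 296 and 275 FPKM and LDHA had 101, 68.9 and 89.2. LDHB, the heart-type subunit, was the higher in each library, with a ratio of 3.36 ± 0.846. HK1 over HK2 was 3.39 ± 0.175, ALDOA over ALDOC 2.60 ± 0.105 and ENO1 over ENO2 139.9 ± 48.2. The monocarboxylate transporters SLC16A1 and SLC16A3 had a ratio of 2.51 ± 0.132. PGAM2, the muscle form, was under the minimum at 0.455, 0.409 and 0.440 FPKM, and HK3, PKLR, LDHC and SLC2A3 are not listed.

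All 26 genes of the citrate cycle and its entry and export steps were expressed, with a median of 25.5 FPKM. MDH2, the mitochondrial malate dehydrogenase, had 132, 139 and 133 FPKM, 5.21 ± 0.0716 times the cytosolic MDH1. IDH1 averaged 107 ± 13.02 and IDH2 91.3 ± 0.296 FPKM, and FH, the fumarase, 83.7 ± 4.04. Normal prostate epithelium is known for exporting citrate. Here citrate synthase CS averaged 17.0 ± 1.00 FPKM, the citrate carrier SLC25A1 50.4 ± 1.54, and ANKH, which exports citrate, 11.3 ± 0.119. The lowest were PC, the pyruvate carboxylase, at 4.12 ± 0.702 and the malic enzyme ME2 at 2.43 ± 0.538, while the cytosolic malic enzyme ME1 averaged 59.9 ± 0.120 FPKM. In the pentose phosphate pathway 7 of 8 genes were expressed. TALDO1 averaged 85.8 ± 1.699 FPKM, PGD 77.8 ± 1.68, TKT 33.7 ± 1.11, RPIA 17.7 ± 2.11, RPE 14.1 ± 0.401 and PGLS 13.01 ± 1.90. TKTL1 is not listed.

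Lipid synthesis was well represented and uneven between steps. Of 21 fatty acid synthesis genes 19 were expressed, with a median of 33.5 FPKM. SCD, which puts the first double bond into fatty acids, had 230.1, 219 and 231 FPKM. FASN, the fatty acid synthase, had 215, 184 and 206 FPKM. ACLY, which splits citrate to supply acetyl-CoA, had 101, 92.4 and 106 FPKM. All of these exceeded ACACA, the carboxylase that commits acetyl-CoA to the pathway, with 37.0, 29.6 and 33.8 FPKM, and FASN over ACACA was 6.03 ± 0.212. ELOVL7, an elongase of long saturated chains, averaged 79.6 ± 0.847 FPKM, against 3.05 ± 0.0876 for ELOVL6. The mitochondrial carboxylase ACACB was under the minimum at 0.708, 0.555 and 0.667 FPKM, and ACSL5 is not listed. All 24 genes of cholesterol synthesis and uptake were expressed, with a median of 23.7 FPKM. INSIG1, which holds back the sterol sensor, averaged 138 ± 2.62, FDFT1, the squalene synthase, 61.0 ± 2.34, CYP51A1 56.5 ± 0.904, IDI1 45.6 ± 1.16 and FDPS 44.6 ± 1.53 FPKM. HMGCS1, a synthase early in the pathway, had 42.5, 38.7 and 16.1 FPKM, with library 3 low.

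Fatty acid oxidation was lower, with a median of 11.4 FPKM over 25 of 26 genes. ECHS1, the short-chain hydratase, averaged 158 ± 6.44 FPKM, ACADVL 57.6 ± 0.775, HADHA 49.9 ± 0.326, the entry transferase CPT1A 46.4 ± 0.663, ETFA 41.9 ± 1.72 and ECI2 41.7 ± 0.985. AMACR, the racemase used to stain prostate cancers, averaged 3.70 ± 0.615 FPKM, which is below the median expressed gene. EHHADH was under the minimum at 0.695, 0.783 and 0.808. Medians of these lists are over expressed members only.

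Polyamines are made in large amounts by the prostate, and 10 of 11 genes of their turnover were expressed, with a median of 49.7 FPKM. SMS, the spermine synthase, had 197, 239 and 199 FPKM. ODC1, the first enzyme, had 139.8, 148 and 141 FPKM. OAZ1, the antizyme that directs ODC1 to the proteasome, averaged 118 ± 4.02, AMD1 93.1 ± 4.21, SRM 63.9 ± 1.22 and SAT1, which acetylates spermine for breakdown, 35.4 ± 1.32 FPKM. SMOX, the spermine oxidase, had 0.698, 1.15 and 1.27 FPKM and missed the minimum in library 1. MTAP, which recycles the methylthioadenosine that polyamine synthesis releases, was low at 1.07, 1.98 and 2.10 FPKM.

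Amino acid and one-carbon genes were expressed in every case, 16 of 16 for serine and one-carbon metabolism and 17 of 17 for glutamine and related amino acids. PSAT1, the serine pathway aminotransferase, had 182, 187 and 188 FPKM, against 31.4 ± 1.17 for PHGDH, the first enzyme of that pathway. AHCY averaged 87.0 ± 4.01 and MAT2A 64.5 ± 2.14 FPKM. Mitochondrial SHMT2 over cytosolic SHMT1 was 3.70 ± 0.429. GOT2 averaged 73.7 ± 0.492, the glutamine carrier SLC38A2 69.6 ± 1.59, ALDH18A1 60.8 ± 0.851, GOT1 57.8 ± 0.558, PYCR1 53.5 ± 1.76 and GLUD1 52.4 ± 0.596 FPKM. GLS2, a glutaminase, was low beside these at 3.32 ± 0.254.

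For zinc and iron handling, 15 of 18 genes were expressed, with a median of 24.4 FPKM. FTH1 and the ferritin light chain FTL (209.9 ± 6.05) led. SLC39A7, which releases zinc from the ER, had 108, 111 and 109.8 FPKM. SLC30A4, a zinc exporter of secretory vesicles, averaged 59.8 ± 1.58, SLC39A6 50.6 ± 0.175 and SLC39A1, the main zinc importer of prostate cells, 24.4 ± 1.95 FPKM. The metallothionein MT2A averaged 27.2 ± 1.13, MT1X 13.8 ± 0.598 and MT1F 1.83 ± 0.0815 FPKM, and SLC39A2, MT1E and MT1G are not listed.

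Enzymes of steroid synthesis and inactivation were sparse. Of 21 genes 8 were expressed, with a median of 5.11 FPKM, against 7.10 over all expressed genes. The highest were HSD17B10 at 78.9 ± 2.88 and HSD17B4 at 31.9 ± 0.573 FPKM, which also act in fatty acid breakdown. HSD3B7, of bile acid synthesis, averaged 9.03 ± 0.213. SRD5A1, which reduces testosterone to dihydrotestosterone, had 2.66, 5.47 and 5.16 FPKM, with library 1 low, and SRD5A3 averaged 5.79 ± 0.153. CYP11A1, the side-chain cleavage enzyme, averaged 3.95 ± 0.272, HSD17B6 3.15 ± 0.528 and UGT2B15, which glucuronidates androgens, 1.48 ± 0.243 FPKM. CYP17A1, STAR, HSD3B1, HSD3B2, AKR1C1, AKR1C2, AKR1C3, SRD5A2, HSD17B2, HSD17B3, UGT2B11, UGT2B17 and UGT2B28 are not listed in the tables used here.

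**Figure D3:**
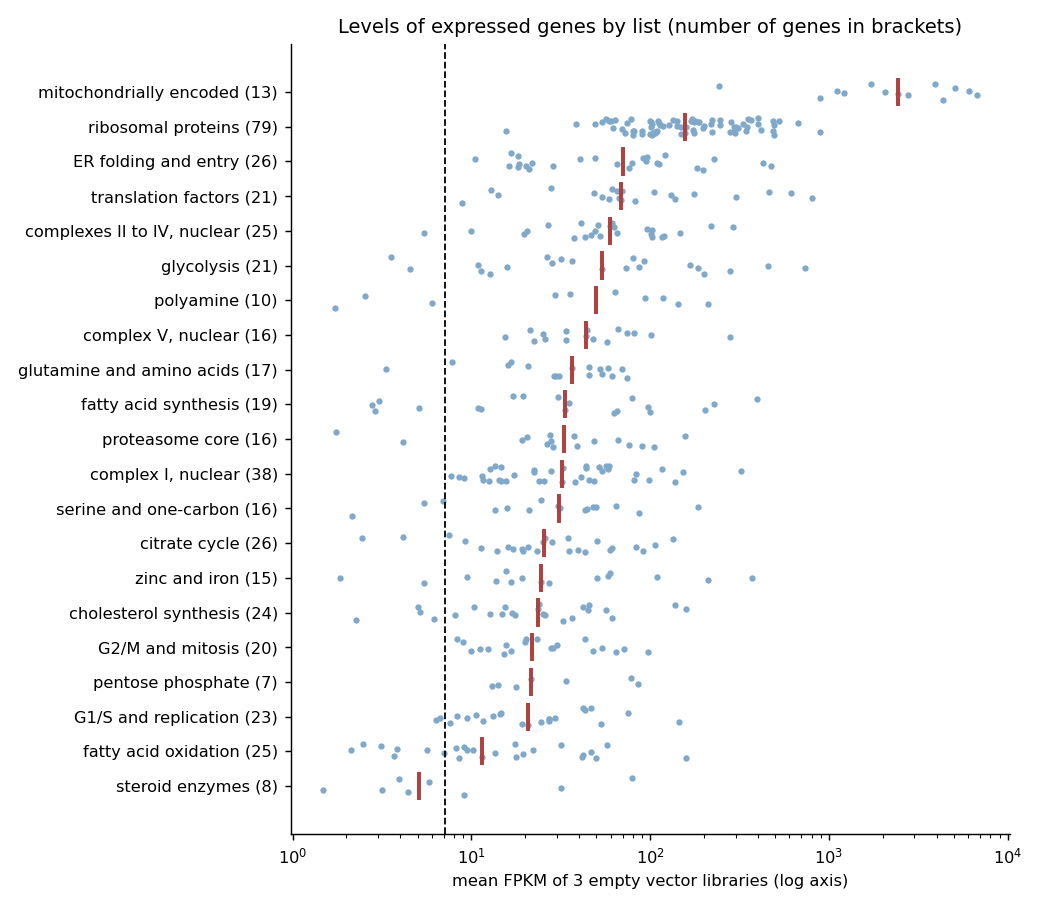
Mean FPKM over the 3 empty vector libraries (log axis) of the expressed genes of lists for translation, secretion, metabolism and the cell cycle; points are genes, red bars list medians, and the dashed line the median of all expressed genes (7.10 FPKM). Mitochondrially encoded and ribosomal protein genes have the highest medians, and steroid enzymes have the sole median left of the line among the lists plotted. The basal, neuroendocrine and fibroblast lists, which are not plotted, also had medians below it.

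Genes of both ends of the cell cycle were expressed. Of 24 G1/S genes 23 were expressed, with a median of 20.8 FPKM, and all 20 G2/M genes, with a median of 21.7. PCNA, the replication clamp, had 141, 151 and 142 FPKM. MCM7, MCM3 and the thymidylate synthase TYMS averaged 52.8 ± 1.98, 46.5 ± 6.33 and 43.2 ± 1.03 FPKM. CDK1, the mitotic kinase, had 97.5, 94.8 and 101 FPKM. CCNB1 averaged 71.8 ± 2.84, CDC20 64.4 ± 0.871, UBE2C 54.0 ± 0.363, TPX2 47.9 ± 1.31 and TOP2A 43.1 ± 0.764 FPKM. CDK4 averaged 27.3 ± 1.80 and CDK6 was under the minimum at 0.806, 0.645 and 0.733. CCND1 over CCND3 was 11.8 ± 0.77.

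Most genes varied little between the libraries. The median coefficient of variation was 5.80%, and 74.9% of expressed genes were under 10%. It was 9.05% in the 10% of genes with the lowest levels and 3.704% in the 10% with the highest. A range of at least 2-fold was found in 299 genes (2.86%), and of at least 5-fold in 19. No library stood out as their source: library 1 was highest in 103 of them, library 2 in 96 and library 3 in 100. In 120 of the 299 a single library was low and the others lay within 1.2-fold of each other, and in 79 a single library was high. Of those with an identifier in the GENCODE v29 annotation, 61 of 298 (20.5%) overlapped another coding gene on the same strand, against 1184 of 10386 expressed genes (11.4%), and the part of this overlap in the ranges was not tested.

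The largest range was that of MYC, the growth-promoting transcription factor, with 48.3, 3.05 and 3.64 FPKM. Libraries 2 and 3 were close for MYC and library 1 was 15.8 times the lowest. Among its transcripts, MYC-206 had 75.5, 1.77 and 1.43 FPKM and MYC-205 had 17.5, 1.13 and 1.62. MYC-204, annotated with 577 bases, had 3.06, 2.47 and 4.16 FPKM and was the highest form in libraries 2 and 3. The part of read assignment between transcripts in the MYC range was not tested. BCL2L2, an antiapoptotic gene, had 3.36, 1.00 and 15.5 FPKM, each library at another level. DAG1, which encodes dystroglycan, had 1.61, 17.7 and 19.2 FPKM and ZC3H11A 1.33, 12.0 and 11.8, both low in library 1. MED29, a Mediator subunit, was also low in library 1, with 2.19, 14.8 and 14.1 FPKM. DCP2, the decapping enzyme, was low in library 2, with 10.9, 1.39 and 10.5 FPKM. PDXP, a pyridoxal phosphatase, was low in library 3, with 19.9, 18.8 and 2.68 FPKM. METTL7A was high in library 3, with 3.97, 4.64 and 26.8 FPKM, and ZKSCAN1 in library 2, with 3.34, 19.8 and 2.95. The readthrough gene TMEM189-UBE2V1 had 40.2, 3.996 and 5.84 FPKM, while UBE2V1, which it contains, had 13.3, 28.6 and 29.3. Values of these overlapping genes moved in opposite directions, and so did AP002990.1, with 107, 24.8 and 32.2 FPKM, and EEF1G, which it overlaps. UBE2V1 was chosen after its values were seen. Of the 10 genes with the largest range, BCL2L2, TMEM189-UBE2V1, ZC3H11A and PDXP overlap another coding gene on the same strand, and MYC, DAG1, DCP2, MED29, METTL7A and ZKSCAN1 do not.

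Of 675 genes with a mean of at least 50 FPKM, AP002990.1 and SEC61A1 were the 2 with a 2-fold range. The next were TFRC, then TIMM8B, a mitochondrial import chaperone, with 62.0, 35.4 and 65.5 FPKM, and TXNRD1, a thioredoxin reductase, with 63.3, 62.0 and 34.5. Of the 556 expressed genes in the lists above, 9 had such a range (1.62%): STEAP2, ZBTB10, CD276, MYC, HMGCS1, OAZ2, SRD5A1, SEC61A1 and RRM2. CD276, a checkpoint ligand, had 19.8, 4.41 and 5.49 FPKM, with library 1 high.

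**Figure D4:**
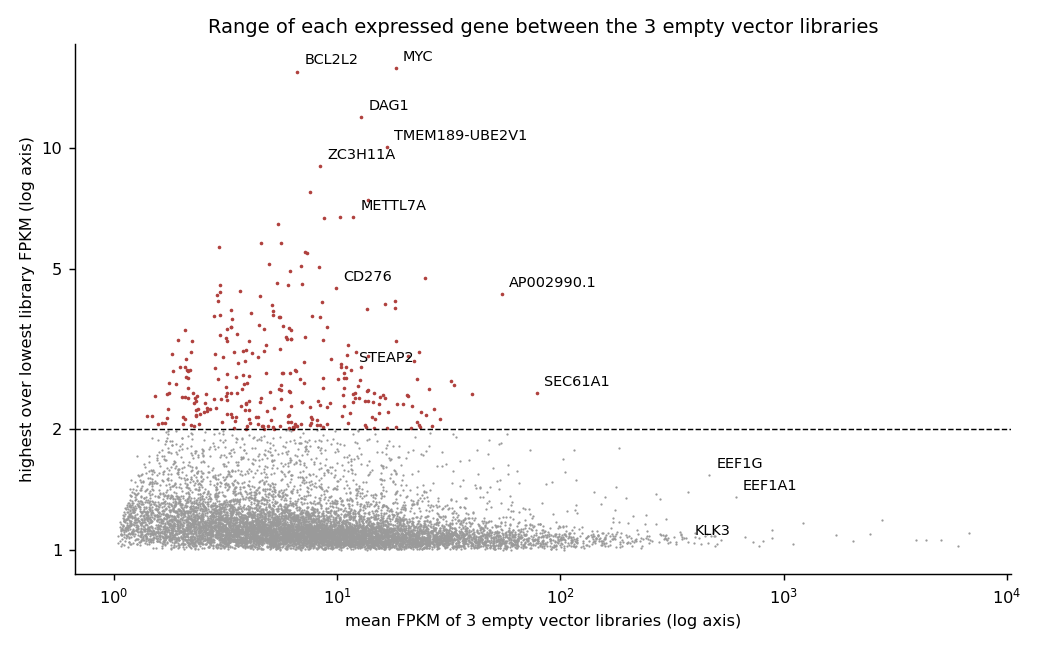
Highest over lowest library FPKM of each expressed gene against its mean FPKM (log axes); the dashed line and red points mark a range of at least 2-fold, found in 299 genes. MYC has the largest range (15.8-fold), and above a mean of 50 FPKM AP002990.1 and SEC61A1 are the points over the line.

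The transcript table gave each annotated coding transcript its own FPKM. A transcript listing was found for 10375 expressed genes, of which 3216 had 1 listed transcript and 7159 several. The transcript with the highest FPKM, here called leading, was the same in all 3 libraries in 4902 of 7158 genes that could be compared (68.5%), and 222 genes had a different leader in each library. The form with the highest mean share over the 3 libraries held a median of 67.5% of the gene's listed transcript FPKM, and at least 90% in 1187 genes (16.6%). Where the leader changes, this form does not lead in every library. By level, the share of genes with a stable leader was 53.7% in the lowest 20% by level and 83.2% in the highest 20%. By number of listed transcripts it was 79.5% with 2 and 54.6% with 6 or more. Transcript levels agreed less between libraries than gene levels, with correlations of log2(FPKM + 0.5) of 0.858 to 0.864 over 28165 transcripts. Sums of transcript FPKM were a median of 1.32 times the gene's own FPKM, so shares are relative to listed transcripts only.

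Of the 30 most abundant nuclear genes, 25 had several listed transcripts, and all 25 kept their leader, with a median share of 88.3%. HSPB1-201 held 99.5%, 99.5% and 99.6% and RPS27-201 99.3%, 99.4% and 99.3% of their genes. ELOVL5-201 held 96.3%, 96.3% and 95.9%. These shares hardly moved between libraries. EEF1A1-203 was less steady, with 1799.9, 494 and 1900.3 FPKM, or 93.7%, 43.4% and 93.7%. EEF2-207 had 7.53, 481 and 7.99 FPKM, beside EEF2-201 with a share of 99.3%, 66.3% and 99.2%. EEF2-207 is annotated with 352 bases, against 3164 for EEF2-201. FTH1-207 held 77.9%, 48.7% and 78.4%, and is annotated with 339 coding bases, against 549 for FTH1-201. In EEF2, EEF1A1 and FTH1 the leading form thus had its smallest share in library 2. Others of these genes went the opposite way: HSP90AB1-203 held 68.3%, 91.0% and 70.6%, RPS6-201 66.6%, 81.3% and 51.7% and ENO1-201 91.9%, 98.5% and 91.7%, each with its largest share in library 2.

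KLK3 was led by KLK3-207, with 492, 482 and 442 FPKM and a share of 57.5%, 58.3% and 54.7%. KLK3-202 held 21.8%, 22.3% and 22.2% and KLK3-204 17.8%, 16.8% and 19.6%. The order of these forms was the same in the libraries. KLK3-207 is annotated with 654 coding bases, against 714 for KLK3-202 and 681 for KLK3-204. KLK2 had no dominant form: KLK2-218 held 34.4%, 25.7% and 31.2%, KLK2-203 28.3%, 31.01% and 28.3% and KLK2-202 23.5%, 27.4% and 23.7%, and the leader changed in library 2. In GENCODE v29 KLK2-218 is a short form of 528 bases, 131 of them coding, against 2674 bases for KLK2-203 and 2847 for KLK2-202. FPKM is scaled to length, and the part of form length in these shares was not tested. KLK4-201 held 93.3% on average, SPDEF-201 98.0%, GRHL2-201 94.7% and TMPRSS2-202 89.1%. FOXA1, HOXB13, SLC45A3, STEAP1, KLK15 and KLK1 each had 1 listed transcript. KLK1-201 was listed at 0 in libraries 1 and 3 and had 3.33 FPKM in library 2, while the gene value was above 1 in each, so the tables did not match for it.

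Other lineage genes changed their leading transcript. XBP1-202 held 52.4%, 46.6% and 41.0% and XBP1-204 39.95%, 44.7% and 50.7%. NDRG1, a stress and androgen response gene, was led by NDRG1-222 in library 1, with 24.3, 0 and 1.24 FPKM, and by NDRG1-202 in the others, with 0.965, 23.1 and 4.20. The NDRG1 gene value stayed even, with 21.2, 22.3 and 20.1 FPKM. STEAP2-203 was at 17.3, 0 and 0 FPKM, and it was library 1 that was high for the STEAP2 gene. For KLF5, the form that led in libraries 1 and 3, with 3.25 and 2.97 FPKM, was listed at 0 in library 2. Over luminal factors, kallikreins and androgen targets, 27 of 33 genes with several transcripts kept their leader. The form with the highest mean share held a median of 76.2% in these genes. Over glycolysis to cholesterol and tumour genes 70 of 94 kept their leader, and that form held a median of 65.6%. Over all compared genes 68.5% kept their leader, and 83.2% did so in the highest 20% by level. The gene sets were not matched by level to these.

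The most abundant genes with a changing leader were EEF1A2, LDHB, PSAP, RPSA, RPL10, UBB, HNRNPK and PRKACB. EEF1A2-201 held 33.5%, 33.9% and 85.5%, with library 3 apart, while the EEF1A2 gene value stayed at 299, 312 and 295 FPKM. LDHB-201 held 48.0%, 53.2% and 62.4%. HNRNPK-201, of an RNA-binding protein, held 66.7%, 32.0% and 68.1%, with library 2 low. PRKACB-217, of a catalytic subunit of protein kinase A, held 73.9%, 45.7% and 6.61%. In RPSA and UBB the leading forms were near equal, with RPSA-202 at 50.9%, 51.4% and 46.6% and UBB-201 at 50.1%, 47.4% and 50.6%. PSAP-205, of the lysosomal prosaposin, held 33.8%, 34.1% and 38.1%, and RPL10-204 19.2%, 42.6% and 11.3%. Some changes of leader were thus between forms of nearly the same level, and others were moves of at least 50 percentage points, which 1055 of the compared genes (14.7%) had in at least 1 transcript.

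Genes with a changing leader had less even gene values. Their gene FPKM lay within 1.2-fold between libraries in 59.5% of cases, against 77.6% for genes with a stable leader, and ranged at least 2-fold in 6.07%, against 1.75%. These groups were not matched by level. Stable leaders were fewer and coefficients of variation larger among genes of low level, and the part of level in this difference was not tested. By the coding intervals of GENCODE v29, the leaders of 431 of 2162 genes with a changing leader (19.9%) had the same coding sequence, so the annotated coding sequence did not change. Among genes with a stable leader, the leading and the next transcript shared their coding intervals in 670 of 4726 (14.2%).

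**Figure D5:**
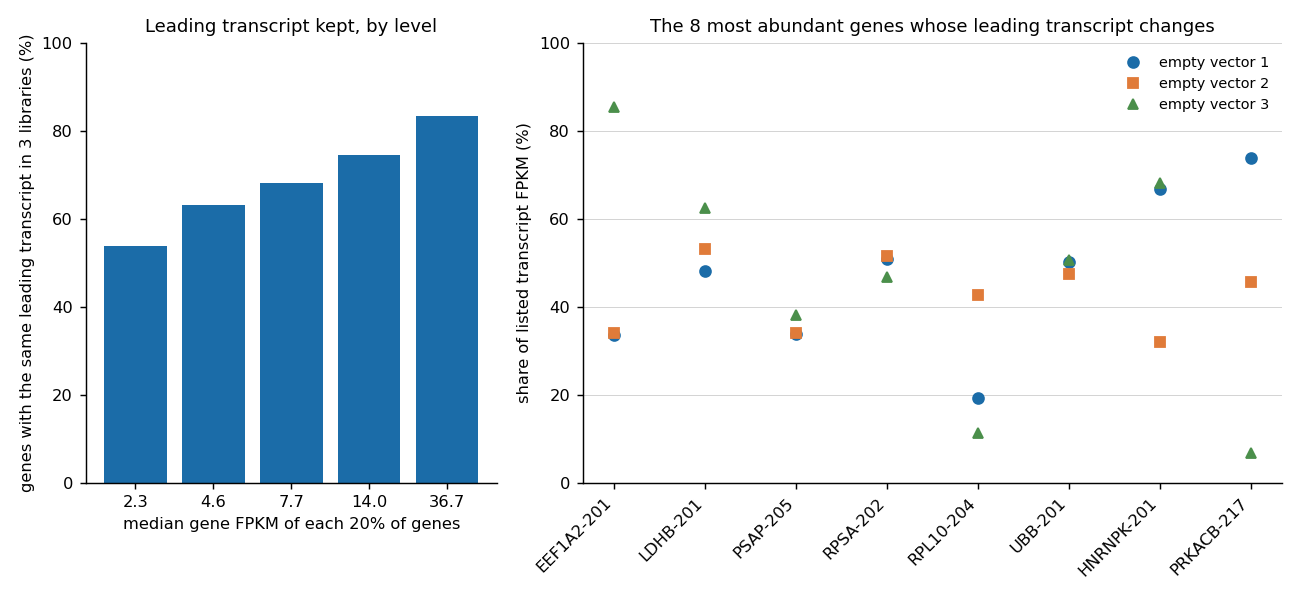
Left, the percentage of genes with several listed transcripts whose leading transcript was the same in all 3 empty vector libraries, in groups of 20% of genes by level (labelled by median FPKM); right, the share of listed transcript FPKM of a leading transcript of 8 genes, with circles, squares and triangles for libraries 1, 2 and 3. The percentage is 53.7% in the lowest and 83.2% in the highest of these groups, and EEF1A2-201, HNRNPK-201 and PRKACB-217 have libraries far apart.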

How the data were processed

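FPKM values of genes and of transcripts were computed by the authors for each library, per the file headers, and deposited in a gene table and a transcript table, both limited to protein-coding features. Tools named, per the submitters' processing notes, were StringTie, HISAT2, cutadapt and FastQC. GRCm38 is given there as the genome build, though it is a mouse build. The deposited identifiers are human, and 11765 of 11844 genes were found by identifier in GENCODE v29, 99 of them with the same start and end. Positions of genes are those of the deposited table, whose build is not stated; 11717 of its identifiers carry the ending that GENCODE uses for annotation mapped to GRCh37. Positions of RefSeq sequences are on GRCh38. Whether multimapping reads were counted is not given in the sources used here.

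Only the 3 empty vector libraries entered a result, apart from the rule by which genes are listed, which was read over both groups. No test was made. A gene was expressed at an FPKM of at least 1 in each library. Shares, medians, ranges and ratios used FPKM without rescaling, and correlations used log2(FPKM + 0.5). A leading transcript had the highest FPKM of its gene in a library. Median shares are those of the transcript with the highest mean share over the libraries. The 32 lists held 660 genes. The members and lists were chosen with earlier results of these data known. The text names the 13 mitochondrially encoded and, of nuclear genes, the most abundant 30, up to 6 of the most abundant members of each list with its members under the minimum or not listed, the 10 genes with the largest ranges and the 5 with the largest ranges at a mean of at least 50, and 8 genes with a changing leading transcript. Some that the rule takes are shown in figures only or are not reported here. Other genes were chosen after their values were seen. Starts were taken from RefSeq windows, and the sequences shown, KLK3 and KLK2 included, are of each gene's window with the lowest position. The range and leading transcript steps were tested on simulated data. Python 3.11.15, numpy 2.4.6 and pandas 2.3.3 were used. The deposited FPKM carry no depth, so no counting error is given.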

Additional observations from a re-analysis of the deposited data

How the results depend on the processing

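The number of expressed genes lay between 9090 (minimum of 2) and 11289 (minimum of 0.5), and all 26 lists with a median above that of all expressed genes stayed at 26 by transcript sums, by ranks and without each library in turn. Other values moved. The 10 most abundant genes held 3.67% of the sum without mitochondrially encoded genes, and these genes held 11.9% by transcript sums. The median was 40.2 when nuclear FPKM were rescaled to sum to 1000000, and 6.99 to 7.04 without a library. Genes with a 2-fold range numbered 189 with a pseudocount of 1, 81 at a minimum of 5, 663 by transcript sums and 163 to 175 without a library. They numbered 162 without genes whose leading transcript changes and 237 without overlapping genes, both chosen after seeing the data. A leading transcript was shared in 2167 genes when only those of at least 10 FPKM were taken (79.8% of them). The median share of the form with the highest mean share was 64.7% over transcripts with a mean of at least 1, and 67.9% to 68.8% without a library. The cause of these moves was not tested, except that fewer libraries or genes lower a count of ranges by construction. Of 90 list medians without a library, 86 stayed within the spread between libraries, and 27 of 30 were higher by transcript sums, up to 2.93 times.

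No paired analysis was possible because a single group was described and no result comes from a test. Whether the SD over 3 libraries holds culture differences is unknown. Lists were read over expressed members. Depth is unknown, so precision at low FPKM could not be computed, and transcript shares depend on how reads were divided between overlapping forms.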

Other observations

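Several abundant genes fell outside the lists and were chosen after their values were seen. PAGE1, a cancer-testis antigen gene, had 286, 312 and 291 FPKM. GDF15, a secreted stress cytokine, had 197, 201 and 207 FPKM. ATF4, the transcription factor of the amino acid response, had 227, 242 and 232 FPKM, and DDIT4, an inhibitor of mTOR signalling, 209.5, 212 and 207. All of these were in the most abundant 2.46% of expressed genes, with their libraries near each other.

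The secreted factor MIF averaged 304 ± 11.2 FPKM, the actin-binding peptide gene TMSB10 297 ± 10.5, the peroxidase gene PRDX1 288 ± 13.9 and CKS2, a subunit of cyclin-dependent kinase complexes, 241 ± 8.39. CHCHD2, a mitochondrial protein, averaged 251 ± 7.37 FPKM. These genes were at the level of FOLH1 or above it.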
